A study of Mus musculus with 18 samples.

Results

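Transforming growth factor beta (TGF-beta) ligands, matricellular CCN proteins and actin-binding proteins of the smooth muscle cytoskeleton were followed in differentiating C2C12 muscle cells through 10 genes: Tgfb1, Tgfb2, Ltbp2, Ccn1, Ccn2, Ankrd1, Tagln, Cnn1, Acta2 and Smtn. A probe set was included where its only gene symbol was 1 of these names. That gave 12 probe sets for the 10 genes, out of 41345 probe sets and 22180 singly named genes on the array. Ccn2 and Smtn were read by 2 probe sets each and the other genes by 1, and a further probe set that carries Ltbp2 together with a second symbol was left out. All 10 genes were measured on all 18 arrays, and no filter on low values was applied to them.

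C2C12 is an established line of mouse myoblasts, which stop dividing and fuse into myotubes when rich serum is replaced by horse serum at low concentration. In all 3 groups the cells were infected 36 h into differentiation with a vector encoding a short hairpin RNA (shRNA) and collected 48 h after infection, so that infection and hairpin expression are common to treated and control arrays. The groups of 6 arrays carried a scrambled control hairpin, a hairpin against Nup210, the gene of a transmembrane nucleoporin, or a hairpin against Mef2c, which encodes a MADS-box transcription factor of muscle. All arrays come from 1 cell line, and the hairpin sequences and their number per target were not given in the sources used. Separate cultures are not stated for the 6 arrays of a group. Each p-value therefore sets a group difference against the scatter of these samples only, and that scatter may be technical.

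Expression is given as log2 values. Array medians ran from 5.48 to 5.57, the correlation across genes between arrays of 1 group was 0.991 to 0.995, and a log2 difference had a median standard error (SE) of 0.080, a precision limited by the number of arrays. As a guide to background, the 95th percentile of 1394 olfactory and vomeronasal receptor genes was 5.47, and 58.7% of genes lay above it. Mef2c averaged 7.91 ± 0.21 (SD, n = 6) with its own hairpin against 10.39 ± 0.16 in controls, or 17.9% of control. Nup210 averaged 5.65 ± 0.11 with its own hairpin against 5.75 ± 0.093 in controls, or 93.1% of control, close to background, a difference within the spread between arrays (two-sided exact permutation p = 0.0801, n = 6 against 6). The Nup210 mRNA therefore does not check that label, and those arrays are called here by the label they carry. All 7 myotube markers examined (Ckm, Acta1, Myh3, Myh8, Tnnt3, Mymk and Myog) lay above background.

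TGF-beta ligands are secreted in a latent form that latent TGF-beta binding proteins tie to the extracellular matrix, and once freed they act through serine/threonine kinase receptors and Smad transcription factors. TGF-beta restrains the differentiation of myoblasts in culture. The CCN proteins are secreted regulators of adhesion and matrix whose genes respond to TGF-beta and to the coactivators YAP and TAZ, which act through TEAD factors. Genes of the smooth muscle cytoskeleton respond to serum response factor (SRF) and its actin-sensing MRTF coactivators, and several of them are also expressed in immature skeletal muscle cells.

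In the arrays labelled Nup210 shRNA, 7 of the 10 genes were lower than in control arrays and none was higher, also at an unadjusted p under 0.05. A gene was called at an adjusted p under 0.05 in the limma fit, with Benjamini-Hochberg adjustment over all 22180 genes, which called 5.11% of all genes lower and 3.05% higher in this comparison. The 7 genes were Tgfb1, Ltbp2, Ccn1, Ankrd1, Tagln, Cnn1 and Smtn. All 10 genes averaged above background, where a larger share of genes was called. With genes below background left out of the test, 1432 of 13017 genes were lower and 930 higher, and again 7 of the 10. The median log2 difference of the 10 genes was -0.35, beside 0.015 over all genes tested. All 10 differences were below 0, as were 44.9% of those of all genes. In 5 of the 10 genes every Nup210 shRNA array lay below every control array, beside 5.63% of all genes whose groups did not overlap in either direction.

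In the Mef2c shRNA arrays 7 of the 10 genes were also lower than in controls and none was higher, where 6.42% of all genes were called lower and 4.34% higher. These were Tgfb2, Ltbp2, Ccn1, Ccn2, Ankrd1, Tagln and Cnn1. With genes below background left out of the test, 1777 of 13017 genes were lower and 1241 higher, and again 7 of the 10 were lower. The median log2 difference of the 10 genes was -0.39, beside 0.020 over all genes. In each of the 7 the Mef2c shRNA arrays lay entirely below the control arrays, beside 7.74% of all genes without overlap. Both comparisons use the same 6 control arrays, so that they are not independent of each other, and the shRNA groups were therefore also compared directly. In that contrast 3 genes were higher with the Nup210 label (Tgfb2, Ccn1 and Ccn2) and 2 were lower (Tgfb1 and Smtn), where 7.1% of all genes were called higher and 6.93% lower. With genes below background left out of the test, 1848 of 13017 genes were higher and 1784 lower. The arrays of the 2 hairpins did not overlap for 3 of the 10 genes (Ccn1, Smtn and Tgfb1), beside 8.62% of all genes. The plot of the 3 contrasts shows these differences with their intervals.

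**Figure D1:**
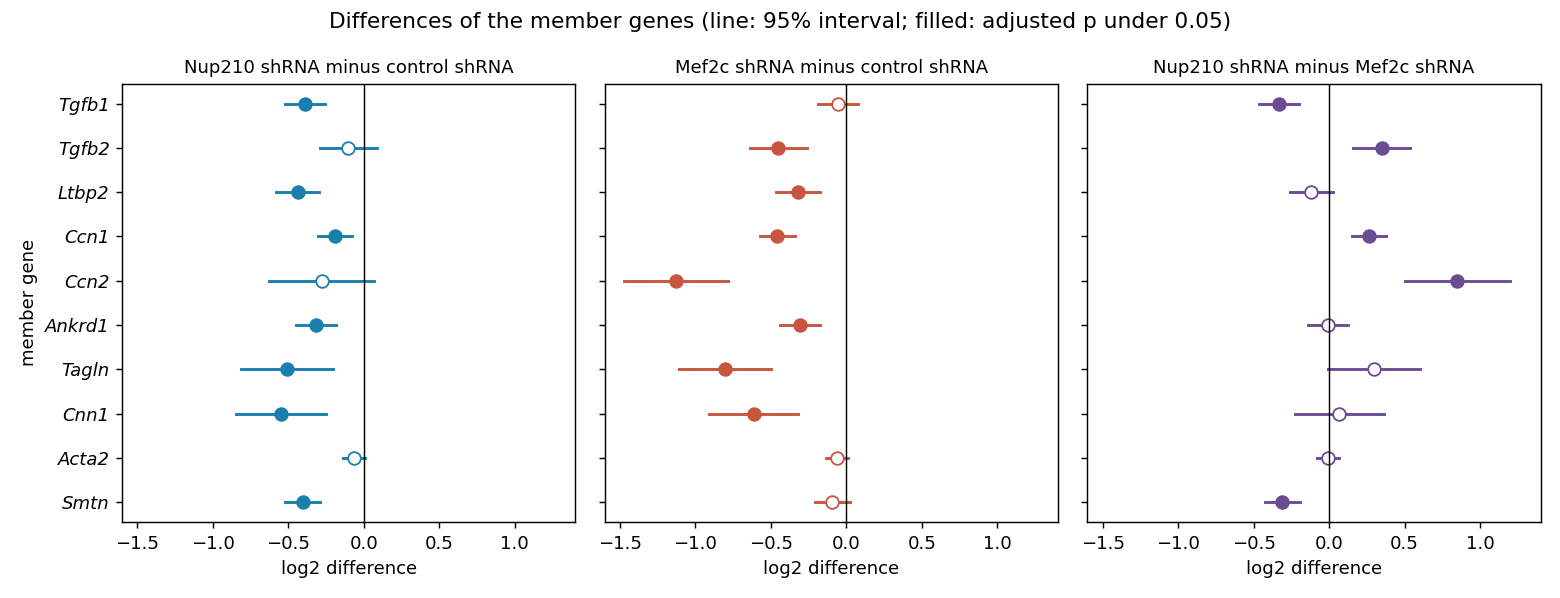
Log2 difference of each gene (x axis) in the 3 contrasts, with 95% intervals as lines and filled symbols for an adjusted p under 0.05. The first panel has 7 filled symbols, all below 0, the second panel has 7, all below 0, and the last panel has 3 above 0 and 2 below 0.

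The start regions of 4 of these genes are shown because the genes were called lower in at least 1 comparison with control (Ccn1, Ankrd1 and Smtn), or had one of the highest levels and no call (Acta2), and because each holds a match to the TEAD core. The 250 bases before the annotated start were taken from RefSeq (build GRCm38.p6), which gave an entry for 8 of the 10 genes, all but Ccn2 and Tagln. They lie on the minus strand and are printed 5′ to 3′ along the gene, with capitals for the TEAD core (CATTCC) or the SMAD core (CAGAC) on either strand. The Ccn1 window is chr3:145649986-145650235, that of Ankrd1 chr19:36119845-36120094, that of Smtn chr11:3539293-3539542 and that of Acta2 chr19:34255374-34255623.
Ccn1: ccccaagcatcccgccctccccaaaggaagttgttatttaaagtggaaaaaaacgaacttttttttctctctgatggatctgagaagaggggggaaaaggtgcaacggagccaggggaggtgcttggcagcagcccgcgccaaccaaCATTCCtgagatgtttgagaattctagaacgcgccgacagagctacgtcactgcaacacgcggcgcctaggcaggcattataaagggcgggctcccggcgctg
Ankrd1: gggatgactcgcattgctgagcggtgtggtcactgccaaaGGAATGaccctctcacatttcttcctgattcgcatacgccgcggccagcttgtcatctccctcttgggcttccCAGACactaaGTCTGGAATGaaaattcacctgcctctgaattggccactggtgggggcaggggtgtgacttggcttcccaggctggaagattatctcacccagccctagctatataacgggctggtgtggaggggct
Smtn: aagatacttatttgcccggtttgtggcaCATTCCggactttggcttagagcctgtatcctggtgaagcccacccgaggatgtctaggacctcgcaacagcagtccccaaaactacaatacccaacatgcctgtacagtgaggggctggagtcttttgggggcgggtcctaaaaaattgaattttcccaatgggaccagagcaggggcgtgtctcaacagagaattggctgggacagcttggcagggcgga
Acta2: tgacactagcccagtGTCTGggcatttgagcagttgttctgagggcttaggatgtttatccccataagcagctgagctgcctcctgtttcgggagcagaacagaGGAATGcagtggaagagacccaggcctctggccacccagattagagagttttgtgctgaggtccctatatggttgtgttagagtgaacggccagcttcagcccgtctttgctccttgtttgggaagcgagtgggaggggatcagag
The TEAD core was found in 4 of the 8 windows (the 4 printed) and in 12.6% of 32841 RefSeq windows of the same length. In Ccn1 it stands 103 to 98 bases before the start, and Ankrd1 holds it at 210 to 205 and again at 123 to 118 bases before the start, with base 123 shared with a SMAD core at 127 to 123. The SMAD core was found in 4 of the 8 windows (Ankrd1, Acta2, Ltbp2 and Tgfb2) and in 42.2% of all windows. The strict CArG box bound by SRF and the strict MEF2 site, which allow no letter off their consensus, were in none of the 8 windows and in 1.47% and 0.509% of all windows. With up to 1 letter off, the CArG box was found in 2 of the 8 windows and in 18.6% of all windows. Acta2 holds it at 84 to 75 bases before the start (ccctatatgg) and at 34 to 25 (ccttgtttgg), and Ltbp2 at 80 to 71. A match describes letters only and was not tested as a binding site.

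Of the ligands, Tgfb1 was lower in the Nup210 shRNA arrays and Tgfb2 was lower in the Mef2c shRNA arrays, and the direct contrast called both. They encode secreted TGF-beta isoforms that signal through the same Smads. Tgfb1 ran from 9.55 to 9.63 in controls (median 9.58), from 9.06 to 9.35 with the Nup210 label (median 9.20) and from 9.36 to 9.68 with Mef2c shRNA (median 9.56). All Nup210 shRNA arrays were thus below all arrays of both other groups, while the Mef2c shRNA arrays spread over and around the narrow range of the controls. The Nup210 shRNA mean of 9.20 ± 0.13 (SD, n = 6) stood at 76.5% of the control mean of 9.59 ± 0.032, a log2 difference of -0.39 ± 0.062 (SE, adjusted p = 0.000597). With Mef2c shRNA the difference was -0.054 ± 0.062 (adjusted p = 0.673), and the direct contrast put Tgfb1 at -0.33 ± 0.062 with the Nup210 label relative to Mef2c shRNA (adjusted p = 0.000996).

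Tgfb2 ran from 8.79 to 9.00 in controls (median 8.95), from 8.64 to 9.00 with the Nup210 label (median 8.82) and from 8.15 to 8.77 with Mef2c shRNA (median 8.48). The Mef2c shRNA arrays lay just below all controls and were the most scattered of the 3 groups, with an SD of 0.24 beside 0.082 in controls. Their mean of 8.48 was 73.2% of the control level of 8.93, a log2 difference of -0.45 ± 0.089 (adjusted p = 0.00239). The Nup210 shRNA arrays overlapped the controls, with a difference of -0.10 ± 0.089 (adjusted p = 0.589). Between the hairpins Tgfb2 was 0.35 ± 0.089 higher with the Nup210 label (adjusted p = 0.0116), although 2 of its arrays fell within the range of the Mef2c shRNA arrays.

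Ltbp2 encodes a matrix protein of the latent TGF-beta binding family, associated with elastic fibres, whose human form does not itself bind latent TGF-beta. It was lower with both hairpins. Levels ran from 8.99 to 9.13 in controls (median 9.03), from 8.44 to 8.85 with the Nup210 label (median 8.56) and from 8.58 to 8.86 with Mef2c shRNA (median 8.74). Neither treated group reached the lowest control array. The means were 8.61 ± 0.17 (SD, n = 6) and 8.73 ± 0.092 against 9.05 ± 0.054 in controls. The log2 differences from control were -0.44 ± 0.067 (SE, adjusted p = 0.000384) and -0.32 ± 0.067 (adjusted p = 0.00369), and the hairpins differed by -0.12 ± 0.067 (adjusted p = 0.32, 95% interval -0.26 to 0.026).

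Ccn1 and Ccn2, secreted matricellular proteins formerly named Cyr61 and Ctgf, were lower with Mef2c shRNA than in either other group. Ccn1 ran from 10.88 to 11.16 in controls (median 11.00), from 10.74 to 10.88 with the Nup210 label (median 10.82) and from 10.43 to 10.66 with Mef2c shRNA (median 10.55). The 3 groups followed each other without overlap, although the highest Nup210 shRNA array and the lowest control array met at 10.88. Ccn1 with Mef2c shRNA was at 72.9% of control, with a log2 difference of -0.46 ± 0.053 (adjusted p = 1.66e-05). With the Nup210 label it was at 87.6%, with a difference of -0.19 ± 0.053 (adjusted p = 0.0328), and that call was lost when any 1 of Nup210 shRNA arrays 1, 2 and 5 or control arrays 2, 4 and 6 was left out, with adjusted p up to 0.0814. The direct contrast was 0.27 ± 0.053 (adjusted p = 0.00173).

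Ccn2 had the largest difference of the 10 genes. Its brighter probe set ran from 8.57 to 9.34 in controls (median 8.96), from 8.17 to 9.19 with the Nup210 label (median 8.72) and from 7.52 to 8.20 with Mef2c shRNA (median 7.83). Every Mef2c shRNA array was below every control array, whereas 5 of the 6 Nup210 shRNA arrays lay within the range of the controls. The Mef2c shRNA mean of 7.86 ± 0.25 (SD, n = 6) was 45.7% of the control mean of 8.99 ± 0.31, a log2 difference of -1.13 ± 0.16 (SE, adjusted p = 0.000127). With the Nup210 label the difference was -0.28 ± 0.16 (adjusted p = 0.365, 95% interval -0.62 to 0.065). A limma fit that also held the replicate number called this difference (adjusted p = 0.00616), as described in the last section. Ccn2 was 0.85 ± 0.16 higher with the Nup210 label than with Mef2c shRNA (adjusted p = 0.00113), with 1 Nup210 shRNA array inside the Mef2c shRNA range. The second Ccn2 probe set averaged 4.80 in controls, below background, and was called in no contrast. On the mean of both probe sets the differences from control were -0.64 with Mef2c shRNA (adjusted p = 0.000703) and -0.074 with the Nup210 label (adjusted p = 0.783).

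Ankrd1 encodes a nuclear and sarcomeric ankyrin-repeat protein that responds to stretch and to YAP, and it was lower with both hairpins. It ran from 12.77 to 12.97 in controls (median 12.87), from 12.41 to 12.66 with the Nup210 label (median 12.58) and from 12.37 to 12.67 with Mef2c shRNA (median 12.60). The treated groups overlapped almost fully, and both lay below all controls. The log2 differences from control were -0.32 ± 0.062 (adjusted p = 0.00295) and -0.31 ± 0.062 (adjusted p = 0.00283), or 80.3% and 80.8% of control. The hairpins differed by -0.0092 (adjusted p = 0.957, 95% interval -0.142 to 0.123). The call for the Nup210 label was lost without Nup210 shRNA arrays 2, 4 and 5 (adjusted p = 0.124), which an earlier analysis of these data had doubted for their low array weights. Each of these arrays lay below the others of that label for Ankrd1, so that leaving them out shrinks the difference by construction.

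**Figure D2:**
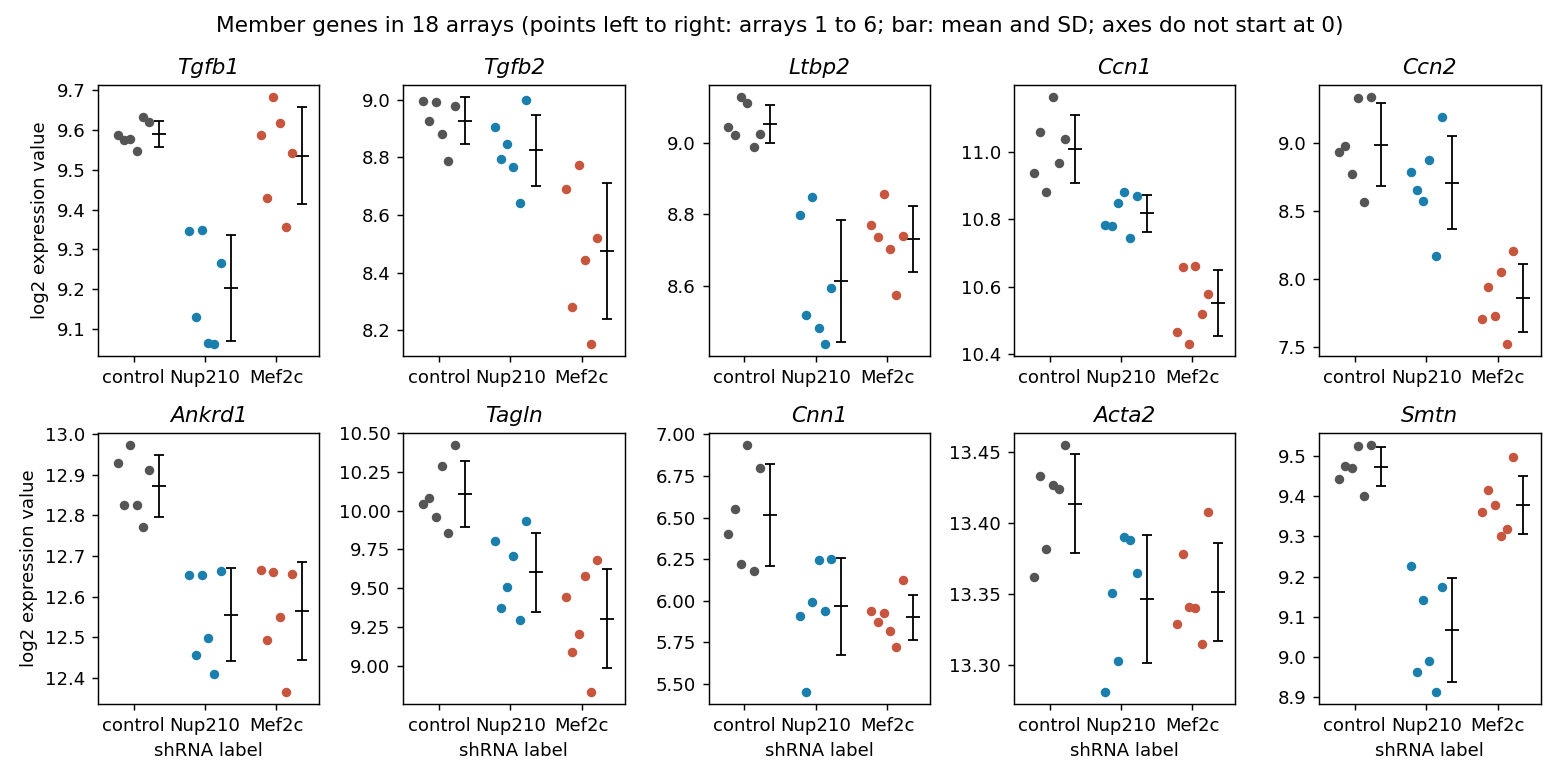
Log2 expression of each gene (y axis, a separate scale per panel that does not start at 0) in the 18 arrays by shRNA label. Each point is 1 array, in the order 1 to 6 from left to right, and bars give the mean and SD of 6 arrays; Smtn and Tgfb1 with the Nup210 label, and Ccn1 with Mef2c shRNA, lie below all arrays of both other groups.

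Among the cytoskeletal genes, Tagln (transgelin, an actin-bundling protein also named SM22-alpha) and Cnn1 (basic calponin, which binds actin and restrains myosin) were lower with both hairpins. Tagln ran from 9.86 to 10.42 in controls (median 10.06), from 9.29 to 9.93 with the Nup210 label (median 9.61) and from 8.83 to 9.68 with Mef2c shRNA (median 9.32). All Mef2c shRNA arrays lay below all controls, and 5 of the 6 Nup210 shRNA arrays did. The Mef2c shRNA mean of 9.30 ± 0.32 (SD, n = 6) was 57.3% of the control mean of 10.11 ± 0.21, a log2 difference of -0.80 ± 0.14 (SE, adjusted p = 0.000926). With the Nup210 label the level was 70.4% of control, a difference of -0.51 ± 0.14 (adjusted p = 0.0343). The call was lost when any 1 of Nup210 shRNA arrays 2, 3 and 5 or control arrays 1, 2, 4 and 6 was left out, with adjusted p up to 0.0875, while the difference stayed between -0.57 and -0.44 whichever single array was left out. The hairpins differed by 0.30 ± 0.14 (adjusted p = 0.209, 95% interval -0.0064 to 0.602), an interval that covers both 0 and a difference larger than that between the Nup210 label and control.

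Cnn1 lay near background in all groups, where differences are compressed. It ran from 6.18 to 6.93 in controls (median 6.48), from 5.45 to 6.25 with the Nup210 label (median 5.97) and from 5.72 to 6.12 with Mef2c shRNA (median 5.90). The Mef2c shRNA arrays lay below all controls, and 4 of the 6 Nup210 shRNA arrays did. The log2 differences from control were -0.55 ± 0.14 with the Nup210 label (adjusted p = 0.0177) and -0.61 ± 0.14 with Mef2c shRNA (adjusted p = 0.00631), and 0.066 ± 0.14 between the hairpins (adjusted p = 0.847, 95% interval -0.229 to 0.361). Control arrays 4 and 6 were the 2 highest for this gene, so that leaving them out shrinks the difference by construction, and both calls were then lost (adjusted p = 0.129 and 0.0562). The call for the Nup210 label was also lost without Nup210 shRNA arrays 2, 4 and 5 (adjusted p = 0.135).

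Smtn, which encodes the actin-binding protein smoothelin, was lower with the Nup210 label. Its brighter probe set ran from 9.40 to 9.53 in controls (median 9.47), from 8.91 to 9.23 with the Nup210 label (median 9.07) and from 9.30 to 9.50 with Mef2c shRNA (median 9.37). The Nup210 shRNA arrays were the lowest 6 of the 18. Their mean of 9.07 ± 0.13 (SD, n = 6) was 75.5% of the control mean of 9.47 ± 0.048, a log2 difference of -0.41 ± 0.055 (SE, adjusted p = 0.000122). The difference was -0.095 ± 0.055 with Mef2c shRNA (adjusted p = 0.327) and -0.31 ± 0.055 between the Nup210 label and Mef2c shRNA (adjusted p = 0.000547). The other Smtn probe set averaged 5.62 in controls, near background, and was called in no contrast. On the mean of both probe sets the difference with the Nup210 label was -0.19 (adjusted p = 0.0166).

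Acta2, alpha smooth muscle actin, was called in no contrast. It ran from 13.36 to 13.46 in controls, from 13.28 to 13.39 with the Nup210 label and from 13.32 to 13.41 with Mef2c shRNA, close to the highest value on any array of 13.75. The log2 differences from control were -0.068 ± 0.034 (adjusted p = 0.279) and -0.062 ± 0.034 (adjusted p = 0.298). Actin genes are nearly identical in their coding sequence, so that the Acta2 value is uncertain, as are those of Acta1 and Actg2 given elsewhere. How far these genes share signal was not tested.

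Other genes of the same pathways were taken from 6 lists that leave out the 10 genes, share some genes among themselves and were chosen with earlier results of these data known. The genes spelled out for a count, beyond the largest rise and fall of each list, were chosen after their values were seen. Over all genes, 5.11% were called lower and 3.05% higher with the Nup210 label, and 6.42% and 4.34% with Mef2c shRNA. Most list genes lay above background. Without genes below background the test called 1432 of 13017 lower with the Nup210 label and 1777 with Mef2c shRNA. For ligands, latency proteins, receptors and Smads, the Nup210 shRNA arrays had 5 of 28 genes lower and none higher, with a median log2 difference of -0.047. They were Ltbp1, Itgb5, Itgb8, Smurf2 and Ski, with the largest fall in the integrin subunit Itgb8 (-0.29 ± 0.077, adjusted p = 0.0263), whose call was lost without control array 4 or 5 or Nup210 shRNA array 1. In the Mef2c shRNA arrays 8 of the 28 were lower and Tgfbr3 and Smad6 were higher, with a median of -0.029. Itgb6, a subunit of an integrin that frees latent TGF-beta, fell most (-0.58 ± 0.074, adjusted p = 4.16e-05), and Tgfbr3, the co-receptor betaglycan, rose most (0.32 ± 0.081, adjusted p = 0.0153). The type II receptor gene Tgfbr2, chosen after its value was seen, was at -0.44 ± 0.048 with Mef2c shRNA (adjusted p = 8.56e-06) and at -0.15 ± 0.048 with the Nup210 label (adjusted p = 0.0723). When Nup210 shRNA arrays 2, 4 and 5 were left out, 1 of the 28 genes was still called for the Nup210 label (7 lower at an unadjusted p under 0.05). When control arrays 4 and 6 were left out, 6 were called for Mef2c shRNA, of which 5 were lower. Fewer genes were called on the whole array too, with 410 lower in place of 1133 in the first case and 883 in place of 1423 in the second.

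Of 17 measured genes known to be induced by TGF-beta, Col3a1 was higher and Lox, Bhlhe40, Sphk1 and Bgn were lower with the Nup210 label, and 9 were lower and none higher with Mef2c shRNA. The median log2 differences were -0.076 and -0.18. Col3a1, a fibrillar collagen chain, rose by 0.38 ± 0.042 (adjusted p = 1.81e-05) with the Nup210 label. Lox, which cross-links collagen, was at -0.32 ± 0.064 there (adjusted p = 0.00379), and its call did not hold without Nup210 shRNA arrays 2, 4 and 5 (adjusted p = 0.139). Tnc, the matricellular protein tenascin-C, was at -1.09 ± 0.19 with Mef2c shRNA (adjusted p = 0.000728). Genes of this list were therefore called in both directions with the Nup210 label. Bhlhe40, at an adjusted p of 0.0414, lost its call in 15 of 29 alternative settings, among them array weights, median centring and single arrays left out. The list's 5 calls for the Nup210 label became 2, 1 in each direction, without Nup210 shRNA arrays 2, 4 and 5. The 9 for Mef2c shRNA became 4 without control arrays 4 and 6, with 11 lower at an unadjusted p under 0.05.

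Close relatives of the 10 genes had 4 of 19 lower with the Nup210 label (Ccn4, Cnn2, Ltbp1 and Ankrd23) and 9 of 19 lower with Mef2c shRNA, with none higher in either comparison and medians of -0.078 and -0.16. Ankrd23, an ankyrin-repeat relative of Ankrd1, was at -0.54 ± 0.13 with the Nup210 label (adjusted p = 0.0141), which did not hold without Nup210 shRNA arrays 2, 4 and 5 or without control arrays 4 and 6. The gamma smooth muscle actin gene Actg2 was at -0.69 ± 0.20 with Mef2c shRNA (adjusted p = 0.0308), a call lost without any 1 of Mef2c shRNA arrays 1, 2, 3 and 5 or control arrays 4 and 6. Another CCN gene, Ccn4, chosen after its value was seen, was at -0.38 ± 0.047 with the Nup210 label (adjusted p = 5.69e-05) and at -0.45 ± 0.047 with Mef2c shRNA (adjusted p = 5.8e-06). Ccn4 kept both calls in the 29 alternative settings. The list's 4 calls for the Nup210 label became 1 without Nup210 shRNA arrays 2, 4 and 5 (6 lower at an unadjusted p under 0.05), and its 9 for Mef2c shRNA became 5 without control arrays 4 and 6 (9 lower at that p).

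For YAP, TAZ, TEAD and their targets, 11 of 30 measured genes were lower and none higher with the Nup210 label, with a median log2 difference of -0.15, and 20 were lower and 2 higher at an unadjusted p under 0.05. The 11 calls became 7 without Nup210 shRNA arrays 2, 4 and 5, and 17 with dim genes left out of the test, 16 of them lower. In that last test 1432 of all 13017 genes were lower. Myof, which encodes the membrane-repair protein myoferlin, fell most (-0.45 ± 0.040, adjusted p = 1.55e-06). With Mef2c shRNA 7 were lower and Stk4, Asap1 and Arhgef17 were higher, with a median of -0.027, and these 10 calls became 6 without control arrays 4 and 6. Mob1a, an adaptor of the Hippo kinases that inhibit YAP, was at -0.63 ± 0.037 (adjusted p = 5.85e-09) and Asap1 at 0.25 ± 0.040 (adjusted p = 0.000322). The called genes include kinase adaptors that restrain YAP as well as genes that YAP induces. In the direct contrast 4 genes were higher with the Nup210 label than with Mef2c shRNA (Tead1, Tead2, Mob1a and Igfbp3) and 12 were lower. Over all genes that contrast called 7.1% higher and 6.93% lower.

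SRF, its MRTF coactivators and their cytoskeletal targets had 8 of 21 measured genes lower and 2 higher (Mrtfb and Zyx) with the Nup210 label, and 10 lower and none higher with Mef2c shRNA, with medians of -0.094 and -0.17. The 10 calls for the Nup210 label became 6 when array 2 of that label or of the controls was dropped. They became 5 on dropping array 4 or 5 of that label, or array 4 or 6 of the controls, and 4 on dropping both of these controls. On median centring they became 6, all lower, so that neither Mrtfb nor Zyx was then called. Without Nup210 shRNA arrays 2, 4 and 5 limma called none of the 21, with 7 lower and 1 higher at an unadjusted p under 0.05. Myl9, a regulatory myosin light chain, fell most with the Nup210 label (-0.61 ± 0.11, adjusted p = 0.00172), which did not hold without Nup210 shRNA arrays 2, 4 and 5 (adjusted p = 0.083). Csrp1, a LIM protein of smooth muscle, fell most with Mef2c shRNA (-0.41 ± 0.055, adjusted p = 7.15e-05). Zyx, the focal adhesion protein zyxin, was at 0.12 ± 0.034 with the Nup210 label (adjusted p = 0.0289) and lost its call without any 1 of 3 Nup210 shRNA arrays (2, 4 and 5) or 4 control arrays (1, 3, 4 and 6), and on median centring. In the direct contrast 9 of the 21 were higher with the Nup210 label than with Mef2c shRNA and Fhl2 was lower, beside 7.1% and 6.93% of all genes. Among 14 smooth muscle contractile genes, Tpm1, Myl9 and Csrp1 were lower with the Nup210 label, and Actg2, Myl9, Cald1 and Csrp1 with Mef2c shRNA, with medians of -0.092 and -0.064. Of these, none was called for the Nup210 label without Nup210 shRNA arrays 2, 4 and 5 (2 lower at an unadjusted p under 0.05), and 2 were called for Mef2c shRNA without any 1 of Mef2c shRNA arrays 1, 2, 3 and 5 or control arrays 4 and 6. Csrp1 was called for the Nup210 label at an adjusted p of 0.0441 in limma. That call was lost in 18 of 29 alternative settings, among them array weights, median centring and single arrays left out. The plot of the 6 lists shows each gene.

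**Figure D3:**
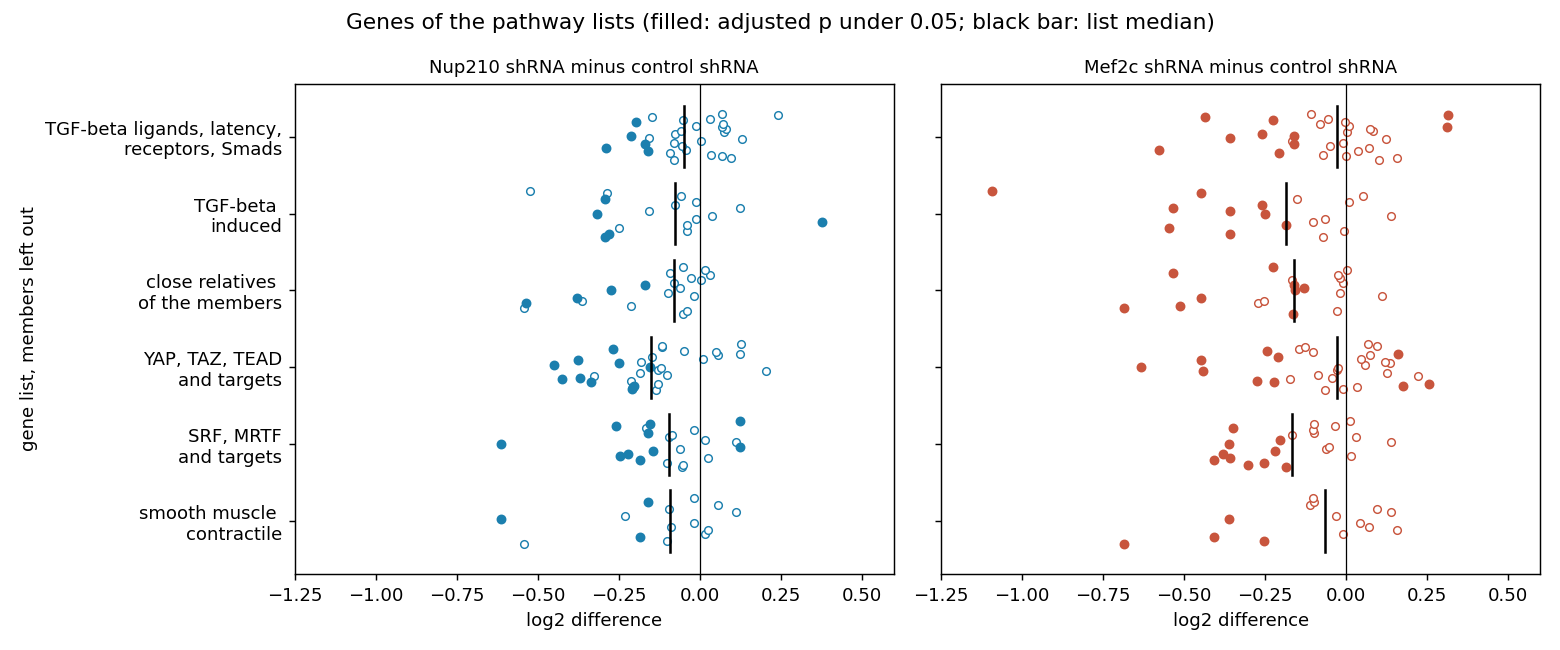
Log2 difference from control (x axis) of each measured gene of the 6 pathway lists (y axis), with the Nup210 label at left and Mef2c shRNA at right; filled points passed an adjusted p of 0.05 and black bars are list medians. The list medians all lie below 0, from -0.15 to -0.047 at left and from -0.18 to -0.027 at right, and most points are open.

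Within groups, the 10 genes fell into partly separate sets. Across the 18 arrays, after each group's mean was removed, 36 of the 45 pairs correlated above 0 and 9 below 0, with a median Pearson r of 0.426, and 7 pairs were over 0.7. The highest were Tgfb2 with Ankrd1 (0.88), Ccn2 with Tagln (0.85) and Tgfb1 with Ltbp2 (0.80), and the lowest was Acta2 with Ltbp2 (-0.52). Tgfb1, Tgfb2, Ltbp2 and Ankrd1 correlated with each other at 0.59 to 0.88, and Ccn1, Ccn2, Tagln and Cnn1 at 0.43 to 0.85. Genes of different sets correlated at -0.30 (Ccn1 with Tgfb2) to 0.63 (Tagln with Ankrd1). Smtn correlated with genes of both sets, such as Ltbp2 (0.70) and Ccn2 (0.62). The sets were picked after the coefficients were seen. The coefficients are descriptions over arrays that share their normalization and their group structure, and they carry no test. The array numbered 5 was the lowest of its group for 7 of the 10 genes in controls, 8 with the Nup210 label and 8 with Mef2c shRNA.

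**Figure D4:**
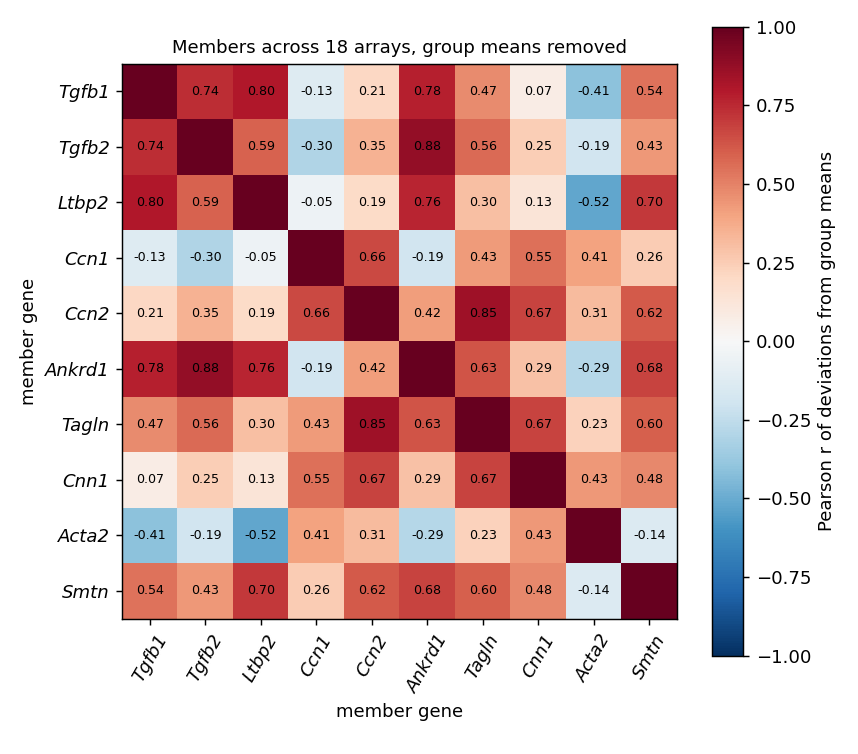
Pearson correlation between the 10 genes across 18 arrays after the mean of each group was removed, with the coefficient printed in each cell and colour from -1 (blue) to 1 (red). Tgfb1, Tgfb2, Ltbp2 and Ankrd1 form 1 block of positive values, and Ccn1, Ccn2, Tagln and Cnn1 a second, with values of up to 0.63 between the blocks.

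The gene most like each of the 10, by the highest Pearson r of the same deviations over 18 arrays among 13007 other genes above background, was Gltp for Ankrd1 (0.960), Tppp3 for Ccn2 (0.952), Actg2 for Tagln (0.930), Cyp51 for Tgfb2 (0.924), Ebp for Tgfb1 (0.916) and E2f2 for Ltbp2 (0.908). For the other genes it was 2310022B05Rik for Smtn (0.875), Prdm10 for Ccn1 (0.861), Ino80c for Cnn1 (0.853) and Rin3 for Acta2 (0.837). Each is the best of many candidates and was given no test.

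Markers of the cell states that a C2C12 culture can hold also differed between groups. The mean log2 level of 7 myotube markers ran from 11.51 to 11.58 in control arrays, from 11.35 to 11.48 with the Nup210 label and from 11.34 to 11.51 with Mef2c shRNA, with Ckm, Myh3 and Mymk called lower in the first comparison and Acta1 and Myh3 in the second. That of 5 markers of undifferentiated myoblasts and reserve cells ran from 8.02 to 8.24, from 8.17 to 8.35 and from 7.92 to 8.03. Myf5 was called higher with both hairpins, and Hey1 and Heyl were called lower with Mef2c shRNA. Of 6 fibroblast markers 4 lay above background, with means of 6.78 to 6.92, 6.89 to 7.06 and 6.87 to 7.08; Dcn was called higher with both hairpins and Col1a1 lower with Mef2c shRNA. Of 5 smooth muscle markers Actg2, Myh11 and Lmod1 lay above background and Myocd and Kcnmb1 below it, with means of 6.23 to 6.42, 6.06 to 6.38 and 6.19 to 6.33 and a single call, of Actg2 with Mef2c shRNA. Of the 4 endothelial, 4 leukocyte and 4 adipocyte markers 1 each lay above background and none was called. The part of these markers in the differences of the 10 genes was not tested, and in these bulk samples fewer cells of a type and less RNA per cell cannot be told apart.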

How the data were processed

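Total RNA of 18 C2C12 samples, 6 for each shRNA label, was hybridised as biotin-labelled target to one-colour arrays, 1 array per sample. Each deposited value is the log2 expression of a probe set, which per the submitters' processing notes was computed with RMA and Partek; versions and genome build were not given in the sources used. RMA brings the arrays to a common distribution and shrinks differences at low signal. No further scaling was done, and no batch was known.

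Gene symbols came from the platform annotation of the probe sets (23521 with 1 symbol, 1814 with several, 16010 with none). The brightest singly named probe set stood for each gene. A single limma model (version 3.58.1, in R 4.3.3) held the 3 group means of the 18 arrays and no other term, with 15 residual degrees of freedom, and p-values were adjusted over 22180 genes by Benjamini-Hochberg. Its recovery of known changes was tested on simulated data, in which each array was drawn independently, without any structure by replicate number. It called 24% of changes of 0.25 log2, 78% of 0.5 and 94% of 1, and 4.86% of its calls were false. A small difference that was not called may therefore have been missed. Promoter sequences came from RefSeq (GRCm38.p6), and no coordinates other than theirs are given.

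The 10 genes, the pathway lists and the markers were chosen with earlier results of these data known. The text names the 10 genes, the targeted genes, the largest rise and fall among called genes of each list in each comparison with control, the gene most like each of the 10, and, marked as such or to spell out a count of up to 5, genes chosen after their values were seen. The alternatives were a block for the replicate number, a fit to only the groups compared, renewed quantile normalization, median centring, dim genes left out, other probe set rules, a trended robust prior, array weights, an adjusted p under 0.01 and each array left out in turn. Fits without Nup210 shRNA arrays 2, 4 and 5 and without control arrays 4 and 6 were added after seeing the data. Both keep fewer arrays. For Tgfb1, Ltbp2, Ankrd1 and Smtn, Nup210 shRNA arrays 2, 4 and 5 lay below the other arrays of that label. Leaving them out shrinks those differences from control by construction.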

Additional observations from a re-analysis of the deposited data

How the results depend on the processing

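Each of the 30 differences of the 10 genes (10 genes in 3 contrasts) was recomputed under 30 alternative settings. Of these 900 values 856 kept their direction and their side of the threshold, 27 lost the call, 2 gained it and 15 changed sign. For the Nup210 label against control, the count of 7 lower genes became 4 at an adjusted p under 0.01, 3 without Nup210 shRNA arrays 2, 4 and 5 (Tgfb1, Ltbp2 and Smtn) and 4 without control arrays 4 and 6, and it ran from 5 to 7 when single arrays were left out. Over all genes the count of 1133 lower became 635, 410 and 724 in the first 3 of these, and without the 3 Nup210 shRNA arrays 7 of the 10 genes were lower at an unadjusted p under 0.05. The calls of Tgfb1, Ltbp2 and Smtn held under all 30 settings. The Tagln call was also lost with array weights, and the Cnn1 call with only the groups compared. With Mef2c shRNA the count stayed at 7 and in the direct contrast at 5 when single arrays were left out. All sign changes were in uncalled direct contrasts, and their causes were not tested. In the main fit those of Acta2 and Ankrd1 were near 0, and that of Ltbp2 was -0.12 ± 0.067 (SE). Acta2 turned to 0.0070 on renewed quantile normalization and 0.0069 on median centring, and ran from -0.014 to 0.0075 over single arrays left out. Ankrd1 turned to 0.0033 on median centring, 0.014 with array weights and 0.092 without Nup210 shRNA arrays 2, 4 and 5, and ran from -0.049 to 0.020 over single arrays left out. Ltbp2 turned to 0.016 without those 3 arrays. For Ankrd1 and Ltbp2 these arrays lay below the others of that label, so that leaving them out raises the direct difference by construction. On median centring the share of called genes that were lower rose from 59.6% (963 higher, 1423 lower) to 73% (592 and 1601) for Mef2c shRNA, and from 62.6% to 71% for the Nup210 label.

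Same-numbered arrays of different groups correlated at -0.22 to 0.46 in their deviations over 18 pairs, and differently numbered arrays at -0.38 to 0.29. Not every same-numbered pair exceeded 0.1, so that the number was not taken as a pairing, although 9 of 18 arrays correlated best with their own number in both other groups. In the limma fit with the replicate number as a block, 8 genes were called lower for the Nup210 label (Ccn2 added, adjusted p = 0.00616). For Mef2c shRNA 7 were called lower. In the direct contrast 4 were called higher (Tagln added, adjusted p = 0.00419) and 2 lower. Genes called lower for the Nup210 label rose from 5.11% to 6.36% of all genes and all calls there from 1809 to 2221. With the block, 7.4% of all genes were called lower and 5.5% higher for Mef2c shRNA. In the direct contrast 7.85% of all genes were then called higher and 8.05% lower. For Ccn1, Tagln and Cnn1, whose calls some other settings lost, the blocked adjusted p for the Nup210 label was 0.00879, 0.000191 and 0.00696. Under that block the lists' called genes for the Nup210 label rose from 5 to 8 for ligands, receptors and Smads (7 lower, Tgfbr3 higher). They rose from 5 to 9 for TGF-beta induced genes (8 lower, Col3a1 higher). For YAP, TAZ, TEAD and their targets they rose from 11 to 14 (13 lower, Igfbp3 higher). Counts rose from 4 to 7 for close relatives and from 3 to 5 for smooth muscle contractile genes, all lower. The count stayed at 10 for SRF, MRTF and cytoskeletal targets (8 lower, 2 higher). The number took up 93.6% of the within-group variance of Ankrd1, 93.3% of that of Ccn2 and 89.5% of that of Tagln, from 49% (Tgfb1) to 72.4% (Tgfb2) of that of the other 7 genes, and 41.7% of that of the median gene above background. The block lowers the residual degrees of freedom from 15 to 10. A part of the within-group variance therefore falls to the number even where same-numbered arrays share nothing.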
